A study of Mus musculus with 15 samples.

Results

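The genes of the cytosolic ribosomal proteins were read in mouse plantaris, a fast calf muscle, as 82 of the 20406 genes in the deposited table. They are the protein-coding genes whose symbol is Rpl or Rps with a number, plus the stalk genes Rplp0, Rplp1 and Rplp2 and the gene Rpsa. Of these, 50 belong to the large ribosomal subunit and 32 to the small one. The kinases of ribosomal protein S6 do not match that rule, and neither do Rack1 and Fau, whose products also sit on or feed into the ribosome. All 82 genes passed the filter on low counts.

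The muscles came from male HSA-GFP mice, in which the human skeletal actin promoter drives a tetracycline-controlled histone 2B-GFP label in muscle fibre nuclei. Every group carried this transgene, including the untrained controls. The group 6M_UT was untrained at 6 months of age, and 6M_PoW had run on a progressively weighted wheel (PoWeR) for 8 weeks from 4 months of age. The group 9M_UT was untrained at 9 months, and 9M_PoW+DT had trained for 8 weeks and then rested for 12 weeks. In a further group, 6M_POW_LD, the titles number the muscles as trained replicates 4 to 6 and add LD, an abbreviation that the labels do not explain. Each group had 3 libraries. The treatment field of the labels contradicts the titles for all 9-month libraries and for the LD libraries, which it calls sedentary, so each direction that involves them rests on the titles. The library identifiers also differ between 6-month, 9-month and LD libraries, so age or training block and library series cannot be told apart. Nothing in the labels says that replicates were separate animals, and p-values then measure only the spread between these samples.

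A cytosolic ribosome is built from ribosomal RNA and a set of small, basic proteins, and each protein is normally present once per particle. Their messages are translated together under the control of mTORC1 through a run of pyrimidines at the very start of the transcript, and growing muscle is known to make more ribosomes when it is loaded. The same messages have been copied back into the genome many times during evolution, so that the mouse carries many intronless copies whose sequence is close or identical to the parent gene. Muscle also has a paralogue of its own, Rpl3l, which replaces Rpl3 in ribosomes of skeletal muscle and heart.

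Coding sequences show what the counting had to tell apart, and these pairs are given because later results turn on them. The first is Rpl3 (chr15:80077791-80091868, minus strand, mm10) and its muscle paralogue Rpl3l (chr17:24727820-24736143, plus strand), over coding bases 1 to 60 from the GENCODE M21 transcripts. Capitals mark the 13 bases at which the 2 differ.
Rpl3: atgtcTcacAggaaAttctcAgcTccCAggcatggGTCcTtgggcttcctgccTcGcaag
Rpl3l: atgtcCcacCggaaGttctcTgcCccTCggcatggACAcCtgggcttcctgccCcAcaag
The second pair is Rps6 (chr4:86854660-86857412, minus strand), which encodes the S6 kinase target, and its processed pseudogene Rps6-ps4 (chr2:75191073-75191822, minus strand). No base differs between them.
Rps6: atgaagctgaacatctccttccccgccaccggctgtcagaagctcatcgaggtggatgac
Rps6-ps4: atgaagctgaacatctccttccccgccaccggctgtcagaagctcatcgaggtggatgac
Over the whole coding sequence Rpl3l and Rpl3 were 74.3% identical, with no identical run longer than 22 bases. Rps6 and Rps6-ps4 were 100% identical over 747 coding bases. A read from the coding sequence can therefore be placed on Rpl3l alone, while a read from Rps6 fits both loci.

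This near-identity runs through the set. Coding sequences were cut into overlapping stretches of 50 bases (50-mers), and for 30 of the 82 genes no such stretch was unique among the annotated transcripts. The median gene had 8.57% unique 50-mers, 13 genes had at least 50%, and Rpl3l was unique throughout. The table itself holds 391 rows for copies of these genes, and 76 of the 82 genes had at least 1 of them. GENCODE M21 has 608 copies by the same rule, so sums with copies below leave out those without a row. The table has 20 of 57 copies for Rpl21, 16 of 34 for Rpl7a and 12 of 35 for Rpl29. The copies with a row carried 47.7% of all counts assigned to a member or its copies, and for 43 genes they carried more counts than the gene's own row. Rps2, a small-subunit core protein, had the most copies in the table, with 30.

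Levels read from the gene rows alone ran far apart, and were lowest for genes with most of their counts on copies. Counts scaled to a common library total (CPM) were divided by transcript length, and the mean over 15 libraries ran from 1.24 to 321 CPM per kb, a 258-fold range, with a middle range (quartiles) of 9.47 to 92.5. With each gene summed with its copies, the range was 6.43 to 543 CPM per kb and the quartiles were 64.8 and 190. Rps27, a small-subunit zinc finger protein, stood at 1.49 CPM per kb on its own row and at 208 with its copies. Rpl23a, which lines the exit tunnel of the large subunit, went from 1.77 to 343. Rpl3l, Rpl4 and the stalk base Rplp0, which are among the highest by either measure, hardly moved, at 290, 284 and 296 CPM per kb alone and 290, 304 and 341 with copies. Across the 82 genes, the log2 level per kb of the row alone had a Pearson correlation of -0.72 with the percentage of counts on copies. These genes share the same libraries, and the percentage is itself partly made from the row, so the value is a description only.

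**Figure D1:**
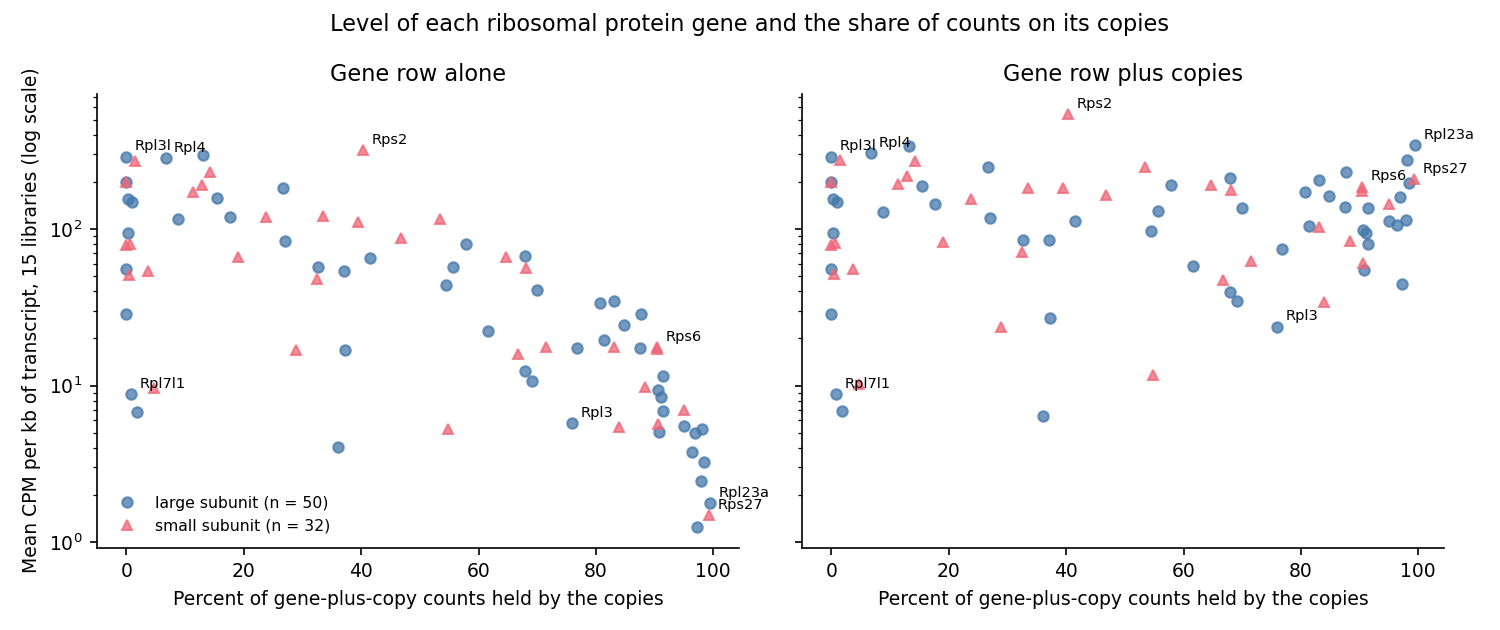
Mean level of each of the 82 genes in CPM per kb of transcript (log axis) against the percentage of counts held by its copies, for the gene row alone (left) and the row plus copies (right). Circles are the 50 large-subunit genes and triangles the 32 small-subunit genes. On the left the levels drop towards 1 CPM per kb as the copies take over, and on the right Rps27 and Rpl23a lie at 208 and 343 CPM per kb.

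Some rows also jumped between libraries of 1 group while the sum with the copies did not. Rps18, a small-subunit head protein (chr17:33951999-33956001), had 49.8, 47.1 and 51.9 CPM in the 3 libraries of 6M_UT. In 9M_UT it had 1.35, 22.8 and 19.2 CPM, and in 9M_PoW+DT 21.7, 20.9 and 42.8. The gene plus copies gave 113, 112 and 112 CPM in 6M_UT, 106, 113 and 110 in 9M_UT, and 111, 113 and 102 in 9M_PoW+DT. Its copy Rps18-ps6 (chr13:97760072-97760632) had 89.1, 72.6 and 76.9 CPM in 9M_UT, against 38.2 to 50.8 in all 6-month libraries. The row of Rps18 was low where the row of the copy was high.

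Rps2 showed the same pattern, in 3 libraries where the row of Rps18 was also low. Its row had 162 and 172 CPM in replicates 1 and 2 of 9M_UT and 186 in replicate 1 of 9M_PoW+DT. The other 12 libraries ran from 315 to 414 CPM. In those 3 libraries the copy Rps2-ps10 had 266, 298 and 307 CPM, and in the other 12 it had 100 to 149. Summed with its copies, Rps2 ran only from 465 to 629 CPM over the 15 libraries. Rpl29, a large-subunit surface protein, had 37.9 to 50.4 CPM on its row in 9 libraries and 76.0 to 96.3 CPM in the other 6, which were 6M_PoW replicate 2, all 3 LD libraries, 9M_UT replicate 1 and 9M_PoW+DT replicate 1. Its sum ran from 70.5 to 101 CPM. The cause of these shifts was not tested.

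**Figure D2:**
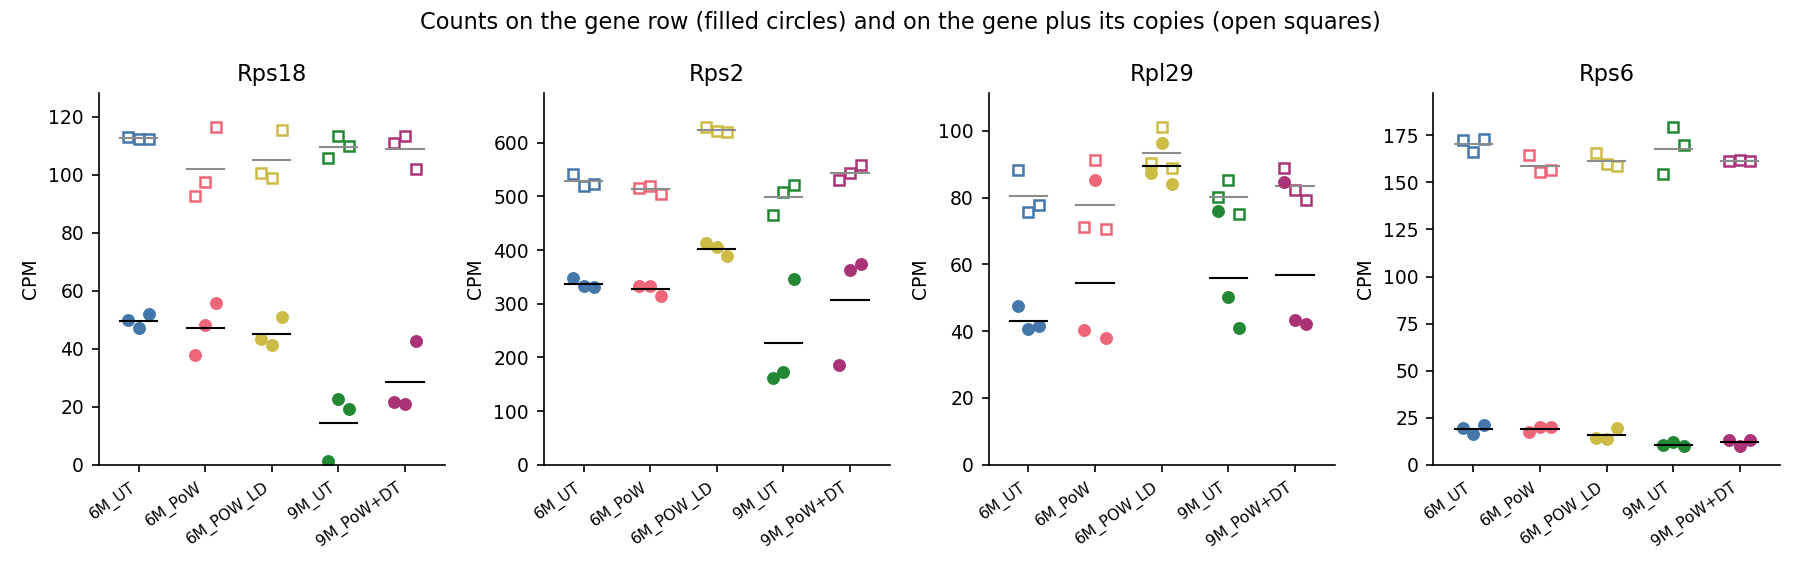
CPM of Rps18, Rps2, Rpl29 and Rps6 in each library, for the gene row alone (filled circles, mean in black) and for the gene plus its copies (open squares, mean in grey), by group with 3 libraries each. The row of Rps18 drops in all libraries of 9M_UT and in replicates 1 and 2 of 9M_PoW+DT. The row of Rps2 drops in replicates 1 and 2 of 9M_UT and replicate 1 of 9M_PoW+DT. The sums of both genes stay near those of the other libraries.

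Over the 82 genes, the median spread between libraries of 1 group was an SD of 0.18 log2 units for the rows and 0.09 for the sums. Among the 56 genes whose row had a mean of at least 10 CPM, the highest library exceeded the lowest by at least 2-fold in 9 genes by row and in 1 gene by sum, which was Rps29. Every comparison below is therefore given for the gene rows, as the main result, and for the genes summed with their copies, an alternative chosen after the data were seen. In such bulk tissue, fewer cells of a type and less RNA per cell cannot be told apart.

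The libraries held 18865037 to 27688826 counts, and the 82 rows took 0.458% to 0.539% of them. Untrained muscle of 6 months gave a share of 0.512% to 0.539%. The groups titled as trained gave 0.490% to 0.519% (6M_PoW) and 0.495% to 0.522% (LD). At 9 months it was 0.458% to 0.480% untrained and 0.498% to 0.519% after detraining. With copies it was 0.980% to 1.01% in 6M_UT and 0.921% to 0.962% in 6M_PoW, and these ranges did not overlap. The 3 libraries of 9M_UT were the lowest of all by row, but with copies they spread from 0.891% to 0.970% and overlapped the other groups except 6M_UT. Summed muscle fibre markers stood at 95973 CPM or more in every library. Leukocyte markers summed to 54.5 to 66.1 CPM in untrained muscle of 6 months, 78.6 to 107 CPM in 6M_PoW and 89.8 to 107 CPM with LD. For fibro-adipogenic markers the sums were 346 to 369.7 CPM, 462 to 576 and 479 to 602 CPM. All 10 tested leukocyte markers and all 7 fibro-adipogenic markers were above 0 in the trained against untrained comparison, and so were 5 of 6 endothelial markers. Endothelial sums ran from 229.97 to 272 CPM in untrained muscle, 293 to 328 CPM after training and 274 to 320 CPM with LD. LD replicate 5 stood apart in Schwann cell markers, at 122 CPM against 25.5 to 48.1 in the other libraries. LD replicate 6 did so in erythroid markers, at 2045 CPM against 214 to 671. The part of these markers in the ribosomal protein results was not tested.

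**Figure D3:**
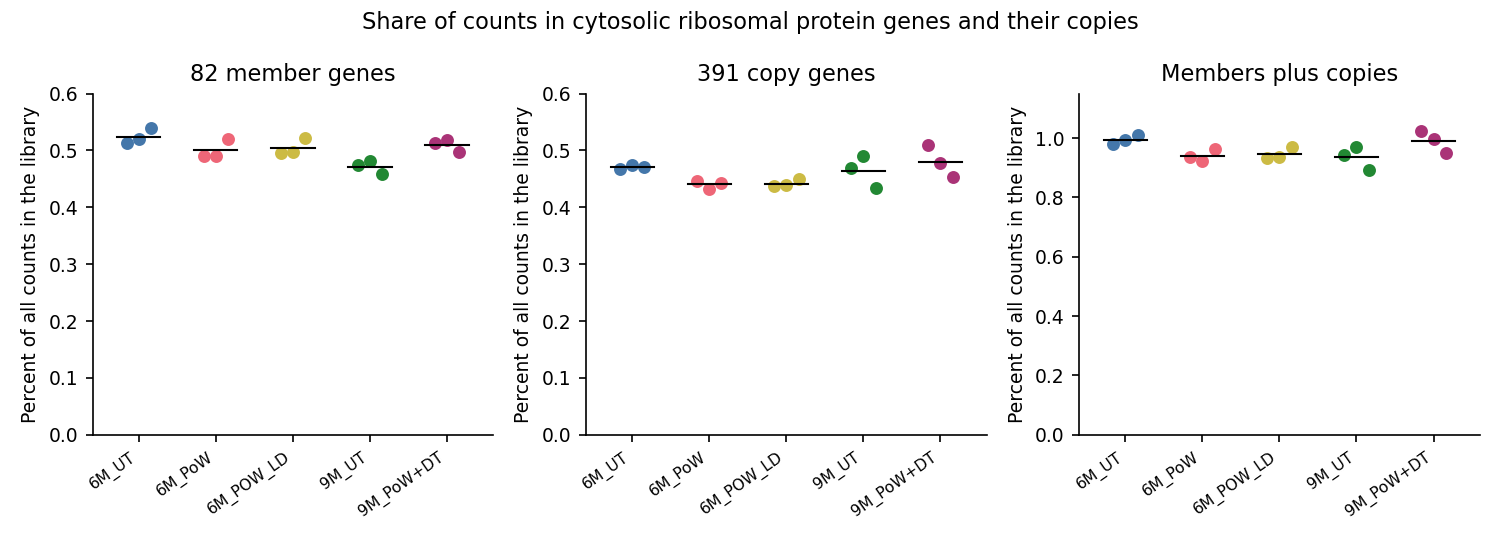
Percentage of each library's counts on the 82 ribosomal protein genes, on their 391 copies and on both, by group. Points are libraries and bars the mean of 3. The sum lies at 0.980% to 1.01% in 6M_UT and at 0.921% to 0.962% in 6M_PoW.

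Training was read as 6M_PoW against 6M_UT, 3 libraries against 3. No ribosomal protein gene passed edgeR's quasi-likelihood test at an adjusted p under 0.05, and none of the 14919 genes tested did (0%). The set nevertheless leaned one way. By row, 64 of 82 genes were lower in trained muscle, against 49.8% of all genes tested, and the median log2 fold change was -0.11, against 0.0013 for all genes. The median row level of a library, in log2 CPM, overlapped between the groups, at 4.75 to 4.94 in 6M_UT and 4.56 to 5.02 in 6M_PoW. With copies it did not, at 6.55 to 6.60 and 6.41 to 6.50. With an unadjusted p under 0.05 there were 9 lower genes and 0 higher ones, beside 5.02% and 4.73% of all genes. All 3 trained libraries lay below all 3 untrained ones in 12 rows, beside 8.28% of all genes, and above them in 0, beside 7.89%. DESeq2 and limma-voom called no member either, among the 117 and 2 genes that they called in all.

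With copies the lean was more uniform. Of the 82 sums, 80 were lower in trained muscle, beside 49.8% of all 14747 genes tested, and the median was -0.14. In 36 of them all 3 trained libraries lay below all 3 untrained ones, beside 8.33% of all genes, and in 0 they lay above, beside 7.95%. An unadjusted p under 0.05 was reached by 21 sums, all lower, beside 5.07% of all genes lower and 4.76% higher. The 2 sums above 0 were those of Rpl3, at 0.073, and Rpl7l1, at 0.041. The median stayed between -0.17 and -0.10 when any 1 library of the fit was left out. The 82 genes were read in the same libraries, so counts of genes, here and in the other comparisons, are not independent observations.

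The gene nearest to a call was Rpl4 (chr9:64173375-64178666), a large-subunit protein that reaches into the exit tunnel with 79.7% of its coding 50-mers unique and 6.68% of its counts on a copy. It had 490.3, 442.5 and 466.4 CPM in 6M_UT and 397.1, 390.5 and 411.9 in 6M_PoW. Every trained library lay below every untrained one. The log2 fold change was -0.22 ± 0.07 (SE), with an adjusted p of 0.268 by edgeR. Rpl3l had 430, 391 and 409 CPM in 6M_UT and 366, 367 and 372 in 6M_PoW, again without overlap, and its log2 fold change was -0.15 ± 0.07 (adjusted p = 0.499 by edgeR). Rplp0, often used as a reference gene, had 421.2, 394.8 and 415.6 CPM in 6M_UT and 420.5, 379.5 and 411.5 in 6M_PoW, and these groups overlapped. Among sums with copies, Rpl23 had the largest difference of the genes at an unadjusted p under 0.05, with 94.2, 84.0 and 83.7 CPM against 70.4, 63.4 and 76.9 and a log2 fold change of -0.31 ± 0.10 (adjusted p = 0.273 by edgeR).

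The 5 rows with the largest values above 0 in trained muscle among those averaging 2 or more on the log2 CPM scale, none of which passed the test, did not keep that sign. Rpl29, Rpl27a, Rps27a, Rps13 and Rpl34 had row values of 0.34, 0.27, 0.24, 0.18 and 0.082 on the log2 scale. Their sums with copies gave -0.053, -0.076, -0.15, -0.12 and -0.068. The row value of Rpl29 rested on 6M_PoW replicate 2, the 1 library of that group with 85.4 CPM, and was -0.14 without it.

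**Figure D4:**
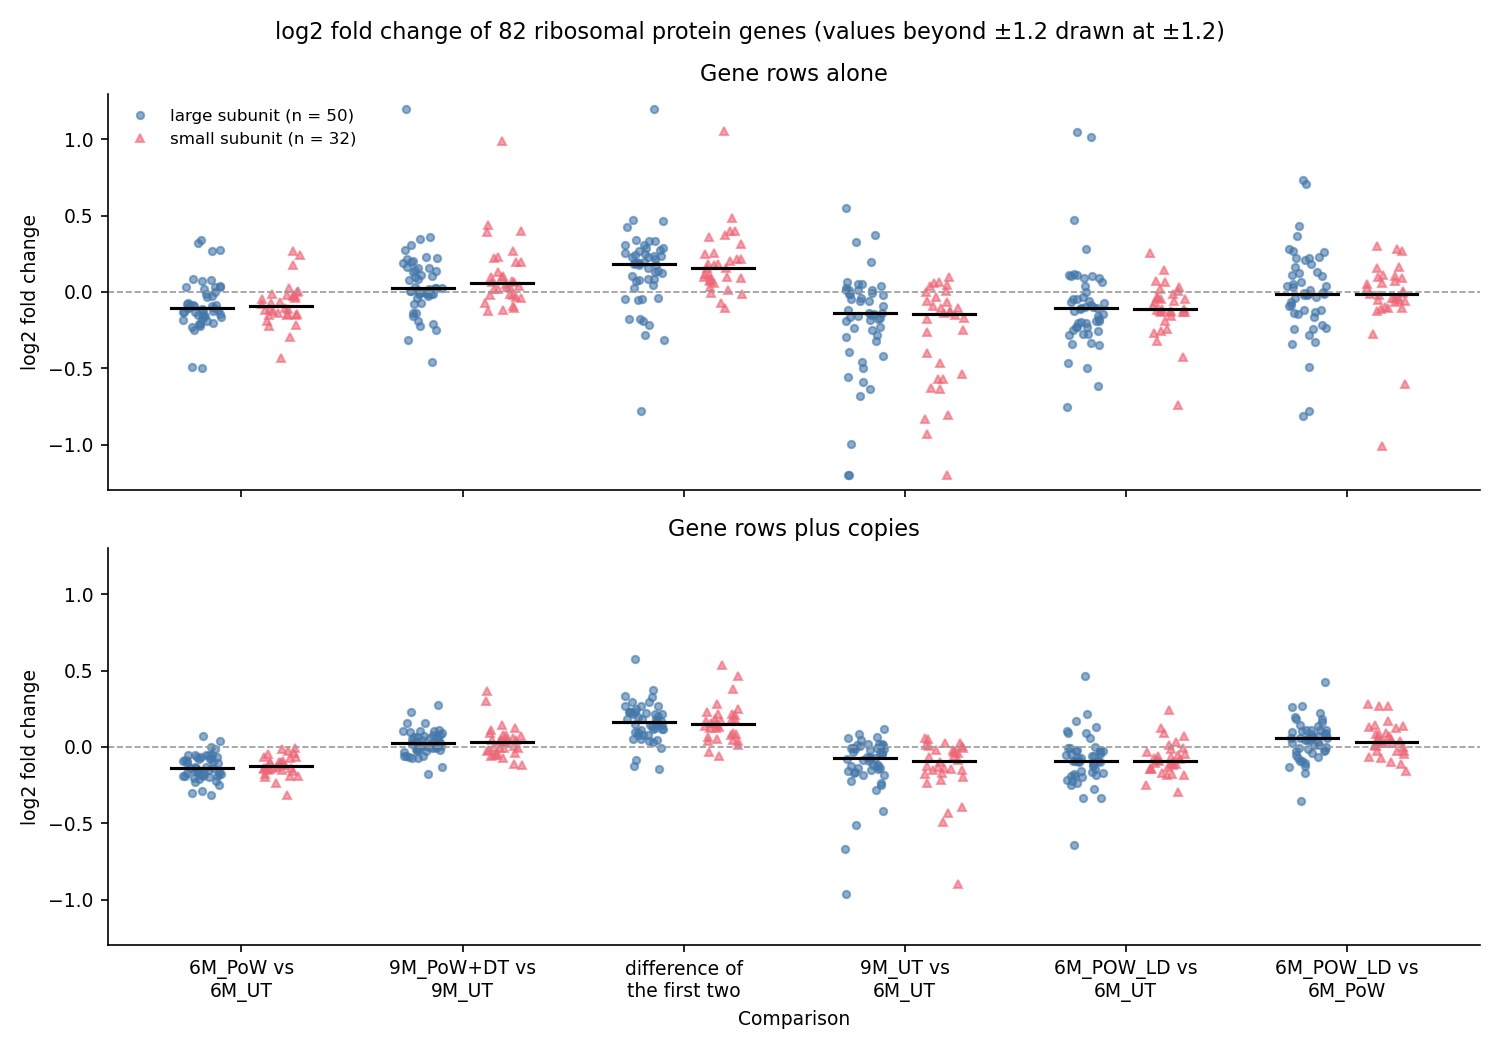
log2 fold change of the 82 genes in each comparison, for gene rows (top) and genes summed with copies (bottom), with large-subunit genes as circles and small-subunit genes as triangles and the median of each as a bar. Horizontal jitter has no meaning, and 5 row values beyond ±1.2 are drawn at the edge. With copies, 80 of 82 points lie below 0 in the trained against untrained comparison.

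Against 6M_UT, the LD libraries gave the first calls. Of the 82 rows, 1 was higher and 2 were lower at an adjusted p under 0.05, beside 2.15% of all 15181 genes higher and 2.83% lower. The members' shares are near these backgrounds. By row, 61 of 82 genes lay below 0, beside 48.8% of all genes, and the median was -0.11. Rpl4 fell, Rpl22, a large-subunit protein on the outer surface, fell, and Rpl7l1, a paralogue of Rpl7 that works in pre-ribosome assembly, rose. This comparison shares its 6M_UT libraries with the training comparison, so the lower values in both are not 2 independent observations.

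Rpl4 had 368, 368 and 370 CPM in the LD libraries, below the 442.5 to 490.3 of 6M_UT. Its log2 fold change was -0.34 ± 0.06 with an adjusted p of 0.00359 by edgeR. The call held in each of the 15 fits that left out 1 library. Rpl22 (chr4:152325742-152334071) had 59.2, 59.3 and 62.6 CPM against 78.3, 70.8 and 79.4, with no overlap. Its log2 fold change was -0.34 ± 0.08 (adjusted p = 0.0217 by edgeR). The adjusted p rose above 0.05 in the fits without 6M_UT replicate 1 or 3 or LD replicate 4 or 5, and reached at most 0.0907.

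Rpl7l1 (chr17:46773907-46782672) had 29.1, 30.9 and 27.1 CPM in the LD libraries, 17.1, 23.5 and 22.3 in 6M_UT and 21.7, 22.1 and 20.6 in 6M_PoW. The LD libraries lay above both other groups. Against 6M_UT its log2 fold change was 0.47 ± 0.13 (adjusted p = 0.0381 by edgeR). That call ended in 7 of the 15 fits without 1 library, where the adjusted p ran up to 0.170 and the log2 fold change down to 0.34 without 6M_UT replicate 1.

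Summing with copies left those 3 calls in place and added 3. Rps2 was higher, with 629, 621 and 620 CPM against 542, 519 and 523 and a log2 fold change of 0.24 ± 0.06 (adjusted p = 0.0236 by edgeR). Rpl21 and Rpl7a were lower, at -0.28 ± 0.07 and -0.25 ± 0.07 (adjusted p = 0.0378 and 0.0423 by edgeR). The share of all genes called in this table was 2.23% higher and 2.95% lower. Without any 1 library, the sums called ran from 0 to 2 higher and from 1 to 4 lower. By sums, 68 of 82 genes lay below 0, beside 48.7% of all genes, and the median was -0.091, against 0.0089 for all genes. The groups did not overlap in 26 lower and 5 higher sums, and in 18 lower and 4 higher rows, beside 12.7% of all genes lower and 12.6% higher in either table.

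Against 6M_PoW, the LD libraries, which are trained by title only, showed 2 higher rows and 0 lower ones at an adjusted p under 0.05. Of all 15181 genes, 1.28% were called higher and 1.12% lower. The groups did not overlap in 6 higher and 6 lower rows, beside 10.7% of all genes in each direction. Rpl3l had 456, 419 and 448 CPM in the LD libraries and 366, 367 and 372 in 6M_PoW. Its log2 fold change was 0.26 ± 0.07 (adjusted p = 0.0493 by edgeR), and 6M_UT lay between, at 391 to 430 CPM. Rpl18 (chr7:45715457-45720836), a large-subunit protein, had 48.8, 47.8 and 50.5 against 39.5, 41.7 and 39.6 CPM, with a log2 fold change of 0.28 ± 0.07 (adjusted p = 0.0485 by edgeR). With copies Rpl18 gave 0.18 ± 0.07 and was no longer called (adjusted p = 0.186 by edgeR).

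Both row calls sit close to the threshold. That of Rpl3l was lost in 12 of the 15 fits that left out 1 library and that of Rpl18 in 13 of them, and the largest adjusted p were 0.185 and 0.156. Library totals in place of TMM factors, edgeR's trimmed-mean scaling, also ended both (adjusted p = 0.109 for Rpl3l and 0.142 for Rpl18 by edgeR). With copies, Rps2 and Rpl3l were called, Rps2 at 629, 621 and 620 against 516, 519 and 505 CPM (log2 fold change 0.28 ± 0.06, adjusted p = 0.0142 by edgeR). Of all genes in that table, 1.31% were called higher and 1.16% lower, and without any 1 library the members called ran from 0 to 3. With copies, 57 of 82 genes lay above 0, beside 49.8% of all genes, and 12 higher and 3 lower sums did not overlap, beside 10.8% of all genes in each direction. The median of the members was -0.011 by row and 0.047 by sum, so its sign turned with the counting.

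**Figure D5:**
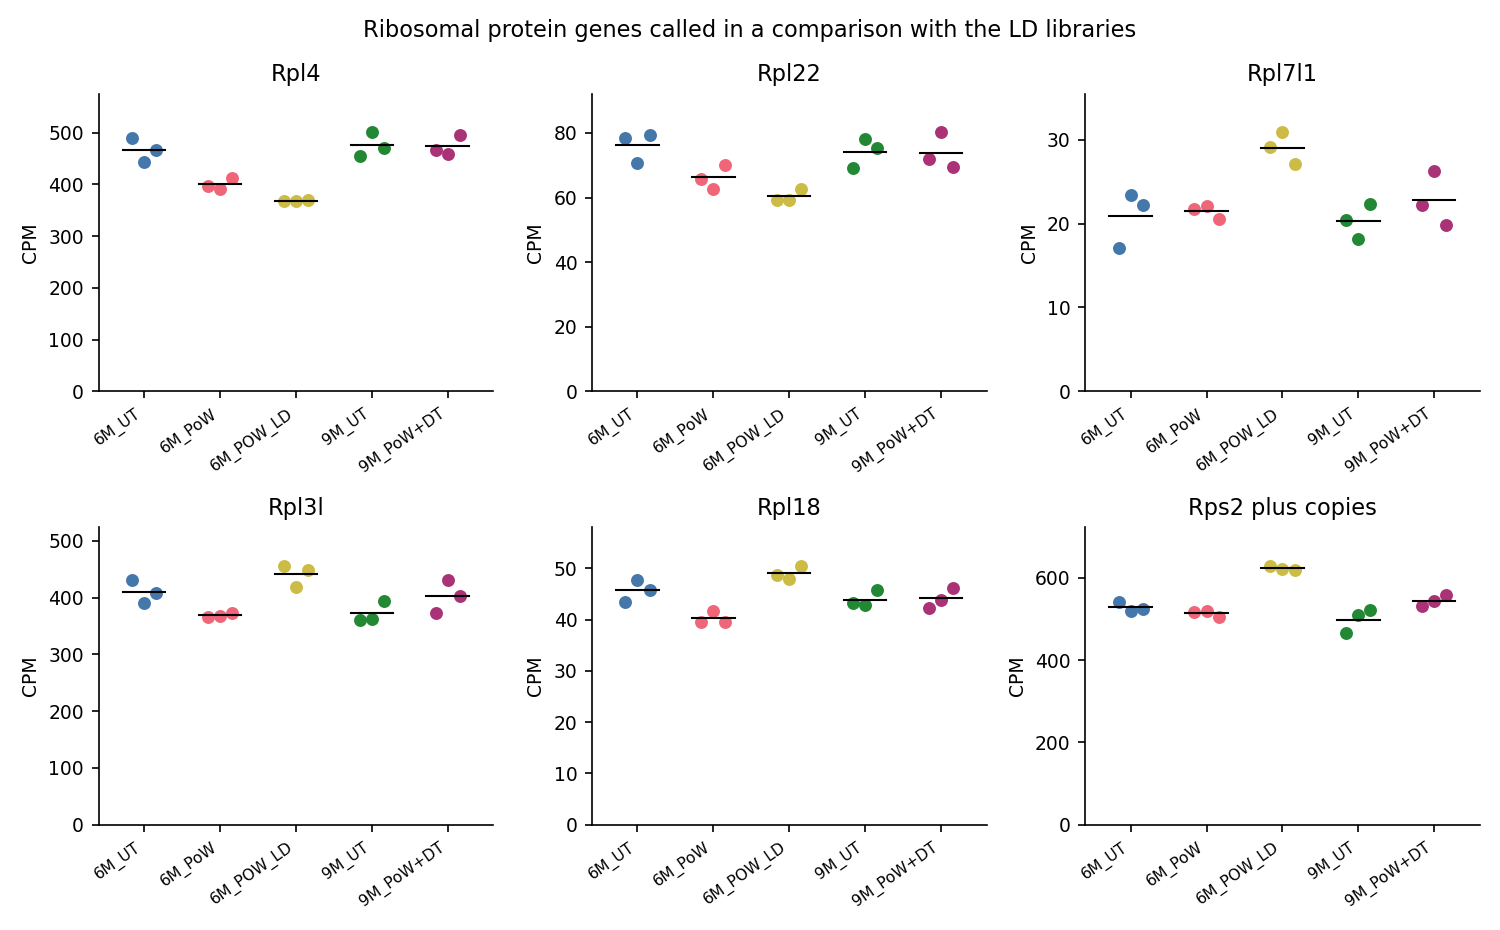
CPM by library of the genes called against 6M_UT (Rpl4, Rpl22, Rpl7l1) or against 6M_PoW (Rpl3l, Rpl18) and of Rps2 summed with its copies, called in both. Points are libraries and bars the mean of 3 per group. The LD libraries are lowest for Rpl4, at 368 to 370 CPM, and highest for Rps2 plus copies, at 620 to 629.

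Detraining was read as 9M_PoW+DT against 9M_UT. No member passed edgeR's test at an adjusted p under 0.05, by row or by sum, beside 0% of all genes higher in either table and 0.0201% of rows and 0.0203% of sums lower. At an unadjusted p under 0.05 there was 1 higher row and 0 lower ones, beside 3.22% and 3.29% of all genes, and 2 sums in each direction, beside 3.25% higher and 3.32% lower. The median was 0.035 by row and 0.025 by sum, against 0.0048 and 0.0045 for all genes, with 53 and 49 of 82 above 0, beside 50.9% of all genes. Leaving out 1 library moved the row median between 0.017, without 9M_PoW+DT replicate 1, and 0.089, without 9M_UT replicate 2. The sum median ran from -0.0100 to 0.081 without the same libraries, and was also below 0, at -0.0059, without 9M_UT replicate 1. All 6 endothelial markers were below 0 in this comparison, and all 4 adipocyte markers were above 0. Adipocyte markers summed to 70.9 CPM in 9M_PoW+DT replicate 3, against 4.71 to 28.5 in the other libraries. The part of these markers in the comparison was not tested. The groups did not overlap in 4 higher and 3 lower rows, beside 6.19% and 5.7% of all genes, and in 6 higher and 3 lower sums, beside 6.25% and 5.66%. Rpl4 had 467, 459 and 496 CPM in 9M_PoW+DT and 455, 501 and 470 in 9M_UT, and Rpl3l had 373, 431 and 402 against 361, 362 and 394. Both pairs of groups overlapped. The sum nearest to a call was Rps23, a small-subunit decoding-centre protein, with 68.8, 58.9 and 53.7 against 45.9, 52.7 and 49.0 CPM (log2 fold change 0.30 ± 0.10, adjusted p = 0.639 by edgeR).

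An interaction term tested whether detraining minus training departed from 0, and no member was called by row or by sum, beside 0% of all genes higher in either table and 0.0268% of rows and 0.0271% of sums lower. By row the median was 0.18, with 67 of 82 above 0, and 3 rows had an unadjusted p under 0.05, all higher, beside 4.79% of all genes higher and 4.69% lower. By sums, 76 of 82 genes were above 0, beside 50.6% of all genes, and the median was 0.16. An unadjusted p under 0.05 was reached by 12 sums, all higher, beside 4.88% of all genes higher and 4.71% lower. The largest of these were Rpl22l1, a paralogue of Rpl22, at 0.58 ± 0.18 and Rps23 at 0.54 ± 0.14 (adjusted p = 0.317 and 0.238 by edgeR). This contrast is built from the 12 libraries of the training and detraining comparisons, so its sign is not separate from theirs. If the treatment field of the 9-month labels were right in place of the titles, the row median of the difference would be 0.063 and that of detraining -0.035.

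Untrained muscle of 9 months was set against that of 6 months, with age and library series confounded. No member was called by edgeR, beside 0.0134% of all 14919 genes higher and 0% lower. DESeq2 called 5, all lower (Rpl14, Rpl17, Rpl38, Rps29 and Rps6), among 58 genes that it called in all. By row, 63 of 82 genes were below 0, beside 51% of all genes, and the median was -0.14. Cell type markers also stood apart between these groups. Leukocyte markers summed to 72.2 to 80.2 CPM at 9 months against 54.5 to 66.1 at 6 months, with 10 of 10 above 0, and fibro-adipogenic markers to 410.1 to 442 against 346 to 369.7, with 6 of 7 above 0. Neither pair of ranges overlapped, and their part in the result was not tested. In all, 29 of 82 genes lay wholly lower at 9 months, beside 6.47% of all genes, and 1 wholly higher, beside 5.34%. At an unadjusted p under 0.05 there were 23 lower rows and 0 higher ones, beside 3.51% and 3.21%.

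The row nearest to a call was Rps6, with 10.3, 12.0 and 9.84 CPM at 9 months and 19.4, 16.6 and 21.3 at 6 months. Its log2 fold change was -0.83 ± 0.14 (adjusted p = 0.0554 by edgeR). Rps6-ps4, the pseudogene printed above with the same letters, had 143, 166 and 158 CPM in the same 9-month libraries and 151, 147 and 151 in the 6-month ones. Rps6 with all its copies gave 154, 179 and 170 against 173, 166 and 173 CPM, and a log2 fold change of -0.023 ± 0.068. Copies held 90.5% of the counts of Rps6 and its copies.

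For other rows the value also shrank once copies were added. Rpl17, at the tunnel exit of the large subunit, had row means of 5.51 ± 1.05 CPM at 9 months and 11.01 ± 1.36 at 6 months, while its sum differed by -0.12 on the log2 scale. Rpl31 gave -0.68 by row and -0.039 with copies, and Rps18 gave -1.79 and -0.039. Rps29, a small zinc-binding protein of the small subunit with few counts on copies (3.64%), kept its value. It had 12.0, 15.7 and 12.4 CPM against 21.1, 25.3 and 30.1, with a log2 fold change of -0.93 ± 0.22 by row and -0.90 ± 0.21 with copies (adjusted p = 0.283 and 0.324 by edgeR). No coding 50-mer of Rps29 was unique, so its share of counts on copies also depends on how reads were placed, which is unknown. With copies, 11 sums had an unadjusted p under 0.05, all lower, beside 3.37% of all genes lower and 3.23% higher, and the median was -0.080. The groups did not overlap in 20 lower and 2 higher sums, beside 6.37% and 5.34% of all genes, and 0.0136% of all sums were called higher.

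Large-subunit and small-subunit genes had medians close to each other, and no difference between the subunits was tested. In training the medians were -0.11 for large and -0.094 for small rows, and -0.14 and -0.13 for sums. In the 9-month against 6-month comparison they were -0.14 for both by row, and -0.076 and -0.091 by sum. The counts of large-subunit genes over small-subunit genes, with copies, stood at 1.55 to 1.58 in 6M_UT. The ratio was 1.53 to 1.55 in 6M_PoW, and the LD libraries gave 1.51 to 1.53. At 9 months the ratio was 1.56 to 1.59 in untrained and 1.58 to 1.60 in detrained muscle. The 3 LD values lay below all 6M_UT values, and Rps2 plus copies was highest in those libraries. By row the ratio reached 1.43 in a 9M_UT library against 1.27 to 1.31 in 6M_UT, in the group where the Rps2 and Rps18 rows were low.

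The paralogues were read as ratios to their canonical partners. Rpl3l stood 48.8-fold over Rpl3 by row (median of 15 libraries, 41.3 to 83.5), and 11.9-fold (10.8 to 15.9) once the copies of Rpl3 were added. Per kb of transcript these medians were 48.0 and 11.7. Copies had 75.9% of the Rpl3 counts, and Rpl3l has none. Rps27l exceeded Rps27 46.3-fold by row but stood at 0.357 of it with copies, because 99.3% of the Rps27 counts lay on copies, mostly on the protein-coding Rps27rt (chr9:114982366-114982739), whose coding 50-mers cover 100% of those of Rps27. Rpl36al exceeded Rpl36a 19.8-fold by row and 1.84-fold with copies. Rpl22l1 stood at 0.131 of Rpl22 and at 0.210 with copies, and Rpl7l1 at 0.120 of Rpl7 and 0.103 with copies. The order of these paralogue pairs thus depended on the counting for Rps27l and not for the others.

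No ratio could pass a test here. Over 5 pairs and 5 comparisons, 25 two-sided exact permutation tests were run on the log2 ratio, and with 3 libraries against 3 the smallest p such a test can give is 0.1. The smallest adjusted p was 0.625 by row. In training the log2 ratio of Rpl3l to Rpl3 was 5.61 ± 0.27 (SD, n = 3) in 6M_PoW and 5.60 ± 0.20 in 6M_UT. With the copies of Rpl3 added it was 3.48 ± 0.061 and 3.72 ± 0.23, a difference of -0.24 (exact permutation p = 0.3, adjusted p = 0.577). One of the ratios whose groups did not overlap was that of Rpl7l1 to Rpl7, at -2.61 ± 0.020 in the LD libraries and -3.18 ± 0.31 in 6M_UT (exact permutation p = 0.1, adjusted p = 0.625).

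The bases around the start of the transcript were read for a pyrimidine run like that described above. RefSeq promoters on GRCm38.p6, of 250 bases before and 50 after the start, were matched for 62 of the 82. An unbroken run of at least 8 C or T within 25 bases on either side of the start was found in 46.8% of them. It was found in 18.8% of 11840 promoters of protein-coding genes. A run counted this way can lie before the start, so it need not be part of the transcript. The bases around the RefSeq start are shown for 3 genes with such a run and for Rpl3l and Rpl7l1, which lack one. The longest run of C or T in each window is in capitals. Rpl3l and Rpl7l1 were called above, as was Rpl22, which lacks one too (longest run of 4) and is not shown. The run of Rpl4 begins before the bases shown and ends before the RefSeq start.
Rps6: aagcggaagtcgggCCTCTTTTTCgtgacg
Rpl18: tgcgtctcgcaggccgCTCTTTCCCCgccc
Rpl4: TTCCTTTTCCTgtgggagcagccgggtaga
Rpl3l: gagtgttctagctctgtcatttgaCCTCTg
Rpl7l1: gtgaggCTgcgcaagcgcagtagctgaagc
From 100 bases before to 50 after the start and on both strands, CTTTCC was found in 38.7% of member promoters and 12.2% of all, CCGGAAG (the letters of an ETS-type site) in 29% and 12.7%, and AAGATGG (those of YY1) in 11.3% and 4.16%. CACGTG was found in 3.23% and 5.98%. CAGCTG, the letters of a myogenic E-box, was in 8.9% of all promoters and in 1 member promoter, that of Rpl3l. A match of letters is a description and not a bound site.

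Genes that make and use ribosomes were read beside them, from lists chosen with earlier results of these data known. Only the rows of these genes were read, and any copies of them were neither searched for nor added. In training, 0 genes of these lists were called. Translation initiation and poly(A)-binding genes had 24 of 27 below 0 (median -0.10), ribosome assembly genes 37 of 50 (median -0.10) and mTORC1 pathway genes 16 of 20 (median -0.085), beside 49.8% of all genes. Mitochondrial ribosomal proteins, which share the function but not the gene set, had 37 of 78 below 0 and a median of 0.0031. Elongation factors had 3 of 9 below 0 (median 0.013), and RNA polymerase I and its factors 7 of 15 (median 0.012). At 9 against 6 months, 66 of 78 mitochondrial ribosomal proteins lay below 0 (median -0.094), beside 51% of all genes. In detraining 61 of 78 lay above 0 (median 0.073), beside 50.9% of all genes. The leans in these 2 comparisons were thus not particular to the cytosolic set. In the LD libraries against 6M_UT, 7 of 27 initiation genes fell, beside 2.83% of all genes, among them Eif4b (295 ± 7.81 to 209 ± 5.58 CPM) and Eif3e (95.7 ± 8.46 to 69.2 ± 2.24). Of 20 mTORC1 genes 4 fell, among them Rheb, the GTPase that switches mTORC1 on, and the RNA-binding protein Larp4. Of 50 assembly genes 3 fell (Gnl3, Utp20 and Noc2l), as did 1 of 15 RNA polymerase I genes, while 5 of 78 mitochondrial ribosomal proteins rose (Mrps23, Mrpl45, Mrpl46, Mrpl28 and Mrpl10), beside 2.15% of all genes. The elongation factor gene Eef1a1 rose there, from 204 ± 5.59 to 262 ± 19.8 CPM (adjusted p = 0.00456 by edgeR), against the direction of most ribosomal protein genes.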

How the data were processed

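RNA from 15 plantaris muscles was sequenced, 3 libraries in each of 5 groups taken from the titles. The authors deposited expected counts per gene, since 26.9% to 31.9% of the values in a library are not whole, and these were rounded to whole numbers. STAR 2.7.3a, DESeq2, Partek and the build mm10 are named per the submitters' processing notes, with no role. No source used here gives the counting method, strand setting or annotation release, so how reads that fit several loci were placed is unknown, as is the effect on overlapping genes.

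Counts were tested with edgeR 4.0.16 (R 4.3.3; filterByExpr, TMM scaling, robust quasi-likelihood fit, 1 mean per group, Benjamini-Hochberg adjustment over all genes tested). Comparisons without LD libraries used 12 libraries and 14919 genes, and those with them 15 libraries and 15181 genes. CPM were scaled by the TMM factors. DESeq2 1.42.0, limma-voom 3.58.1, other scalings and filters, a replicate block, other readings of the labels and each library left out were alternatives. The fit was tested on simulated data.

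Copies were genes of GENCODE M21 that overlap no member and share at least 10% of a member's coding 50-mers (those not typed as pseudogenes also had at least 20% of their own in members), assigned to the member with the largest share and found in the table by position or symbol. All 82 members match GENCODE M21 in position. Transcript lengths came from 1 transcript a gene (basic set and APPRIS principal first), promoters from RefSeq (GRCm38.p6), and alignments from Biopython 1.88.

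Members, lists and naming rule were chosen with earlier results of these data known. The rule names the 5 members with the largest difference in each direction (average log2 CPM of at least 2), every called member, paralogues with their partners, the 5 most and 5 least abundant, and Rplp0, Rplp1, Rplp2, Rpsa, Rps6 and Rpl4. Rpl14, Rpl21, Rpl23 and Rps23 were named after their values were seen. Replicates of a group differed by more than sampling noise.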

Additional observations from a re-analysis of the deposited data

How the results depend on the processing

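Replicate numbers did not pair the libraries (correlations of same-numbered libraries -0.20 to 0.15). With the replicate number as a block, 0 members were called in the 4 comparisons of the 12 libraries and the medians were -0.11, 0.033, 0.18 and -0.14 for training, detraining, the difference and 9 against 6 months, so no call changed.

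The training median stayed negative, at -0.17 to -0.051 without any 1 library. Under every alternative run for training, detraining and the difference, 0 members were called. DESeq2 called 117, 30 and 98 genes in all in these 3 comparisons. For 9 against 6 months the members called were 1 with library totals or no filter and 0 to 1 without any 1 library. DESeq2 called 5 members there, among 58 genes in all, and 2 with copies. For LD against 6M_UT they were 1 to 4 without any 1 library, 6 with copies, also with RLE factors, TMM factors computed without the members or limma-voom, 7 with DESeq2 and 5 with library totals. For LD against 6M_PoW they were 0 to 3 without any 1 library, 0 with RLE factors, library totals, upper-quartile factors or no filter, and 1 with TMM factors without the members, limma-voom, only the largely unique members, or copies with RLE factors or library totals. Its median of -0.011 was -0.0748 to 0.0672 without any 1 library, 0.0659 for the largely unique members and 0.0467 with copies (0.0428 with RLE factors, 0.0433 with DESeq2, 0.00518 with library totals, 0.0470 with TMM factors without the members, 0.0508 with limma-voom).

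Exchanging the 9-month labels turned the detraining median to -0.0346 (-0.0252 with copies) and the median of the difference to 0.063. Rpl4 was 0.0518 in detraining and -0.00154 at 9 against 6 months with library totals.

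With copies, single rows changed sign. In training Rpl29, Rpl27a, Rps27a, Rps13 and Rpl34 were -0.0533, -0.0764, -0.147, -0.12 and -0.0684. In detraining Rps18, Rpl27, Rpl10 and Rpl35 were -0.0102, 0.0948, 0.0779 and 0.0804. In the difference Rpl29, Rpl10, Rpl34, Rpl11 and Rpl37a were 0.112, 0.216, 0.0323, 0.134 and 0.0494. At 9 against 6 months Rpl29, Rpl10, Rpl27 and Rps7 were -0.00515, -0.0677, -0.174 and -0.0689. In LD against 6M_UT Rpl35a and Rps27a were -0.0582 and -0.00997, and against 6M_PoW Rps13, Rpl31 and Rps6 were 0.0284, 0.00086 and 0.0231. The Rpl3l/Rpl3 log2 ratio difference was -0.244 in training and -0.0774 in LD against 6M_UT, and that of Rpl36al/Rpl36a 0.00958 in training and -0.00259 at 9 against 6 months. With a prior count of 2 it was -0.0217 for Rpl3l/Rpl3 in training, -0.0311 for Rps27l/Rps27 at 9 against 6 months and -0.000302 for Rpl36al/Rpl36a in detraining.

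Without any 1 library, row values crossed 0 in training for Rpl34 (-0.00124 to 0.146), Rpl29 (-0.14 to 0.55) and Rps27a (-0.0641 to 0.414), in detraining for Rpl4 (-0.0387 to 0.0341), and in the difference for Rpl29 (-0.72 to 0.17), Rpl11 (-0.393 to 0.0564), Rpl37a (-0.336 to 0.0177) and Rpl34 (-0.38 to 0.0396). At 9 against 6 months they did so for Rpl27 (-0.027 to 0.225), Rps7 (-0.0114 to 0.157), Rpl4 (-0.0116 to 0.0649) and Rps25 (-0.00275 to 0.20), and with LD libraries for Rpl31 against 6M_PoW (-0.47 to 0.0933) and Rps27a against 6M_UT (-0.195 to 0.357). Ratio differences that crossed 0 were Rpl3l/Rpl3 in training (-0.153 to 0.105), LD against 6M_UT (-0.0591 to 0.14) and LD against 6M_PoW (-0.053 to 0.191), Rpl22l1/Rpl22 in training (-0.128 to 0.0589), Rpl7l1/Rpl7 at 9 against 6 months (-0.225 to 0.0648), Rps27l/Rps27 in training (-0.547 to 0.0541), detraining (-0.25 to 0.16) and 9 against 6 months (-0.13 to 0.28), and Rpl36al/Rpl36a at 9 against 6 months (-0.00748 to 0.31) and in detraining (-0.135 to 0.0881). The cause of these changes was not tested. Alternatives with copies were chosen after seeing the data.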
